A study of Mus musculus with 3 samples.

Results

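The goblet mucus and secretory genes are 8 genes taken by symbol, Muc2, Zg16, Tff3, Agr2, Fcgbp, Clca1, Spink4 and Muc3, out of the 32285 genes measured. All 8 were found in the files, and their raw UMI counts were followed over marker-gated goblet cells, the rest of the epithelium and the immune classes. A UMI count is the number of distinct RNA molecules read for a gene in a cell, and a level in CPM is a gene's number of UMIs per 1000000 UMIs of the cells summed. Muc2, Zg16, Tff3, Fcgbp, Clca1, Spink4 and the folding enzyme Agr2 are called the 7 secretory genes, and Muc3 is the membrane mucin.

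Goblet cells are the mucus-secreting cells of the intestinal epithelium. They fill apical granules with the gel-forming mucin Muc2, which is folded and joined in the endoplasmic reticulum with help of Agr2, given dense sugar chains in the Golgi, and released by exocytosis. Zg16, Fcgbp, Clca1, Tff3 and Spink4 are secreted with it into the mucus, whereas Muc3 is a membrane-bound mucin of the epithelial surface.

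The libraries hold duodenal cells of C57B6/J mice, male per the title of the series, 30 days after injection into the duodenal wall. The PFF group received preformed fibrils of alpha-synuclein and has 1 library (PFF 1, batch 1). The saline group received saline and has 2 libraries (saline 1 in batch 1, saline 2 in batch 2). After digestion with Accumax, CD45-sorted cells and cells bound on CD11b beads were combined, so both selections aimed at immune cells, and epithelial cells are what was carried along. How many mice went into a library is not given in the sources used here, and with 1 PFF library the spread of the PFF group could not be measured.

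Each saline file joins several wells, and 3 of them, with 1509, 3648 and 8732 cells, held the same barcodes with identical counts in both files. These wells were counted once and are called shared wells 1, 2 and 3; all are saline. The remaining well of each saline file, with 5631 cells for saline 1 and 5734 cells for saline 2, served as that library, beside 15352 cells in PFF 1. PFF 1 and saline 2 shared 119 barcodes, and in 97 of them the PFF 1 copy held under 5% of the UMIs of the saline 2 copy, with a median of 1.03%, so these shallow copies were left out, together with 2 in shared well 2 and 1 in shared well 3. After filtering, 10994 cells were kept in PFF 1, against 5221 in saline 1, 4182 in saline 2, and 985, 1708 and 7924 in shared wells 1, 2 and 3, and median depths ran from 3213 UMIs per cell in saline 1 to 10032 in saline 2. T-gated cells were the most frequent class, with 24616 cells.

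Goblet cells were gated without any of the 8 genes, by at least 6 of 18 other goblet markers such as Spdef, Atoh1 and Creb3l1 and at least 10 UMIs of them per 10000, in cells with epithelial markers and few immune markers. The gate held 121 cells: 32 in PFF 1, against 1 in saline 1, 47 in saline 2, and 10, 30 and 1 in shared wells 1, 2 and 3. Their number of gating markers ran from 7 to 18 with a median of 17, and 107 cells had 12 or more. At the edge of the gate, 4 cells with 6 markers failed on the UMI condition, and 10 cells that met only 1 of the 2 conditions were put in neither class. Goblet-gated cells were 10.6% of the gated epithelium in PFF 1 (exact 95% interval 7.36 to 14.6%), against 2.94% in saline 1 (0.0744 to 15.3%) and 10.7% in saline 2 (7.97 to 14.0%). They were 5.18% in shared well 1 (2.51 to 9.32%), 4.08% in shared well 2 (2.77 to 5.78%) and 10.0% in shared well 3 (0.253 to 44.5%). The interval of shared well 2 lies below that of PFF 1, and those of the other saline wells overlap it. These intervals cover the counting of cells within a well, not the spread between mice, and no test was made over 1 PFF and 2 saline libraries. Both selections were for immune cells, and their part in these shares was not tested.

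Of the 8 genes, 4 had a promoter in the RefSeq table used here (build GRCm38.p6), Muc2, Agr2, Fcgbp and Muc3, and the 250 bases before the start of 3 of them are shown. Muc2 and Fcgbp are both high in goblet-gated cells and varied together from cell to cell, and Muc3 follows the enterocytes instead. The windows lie at chr7:141690090-141690339 on the plus strand for Muc2, chr7:28070986-28071235 on the plus strand for Fcgbp and chr5:137166047-137166296 on the minus strand for Muc3. Capitals mark the matches to the motifs searched on both strands.
Muc2: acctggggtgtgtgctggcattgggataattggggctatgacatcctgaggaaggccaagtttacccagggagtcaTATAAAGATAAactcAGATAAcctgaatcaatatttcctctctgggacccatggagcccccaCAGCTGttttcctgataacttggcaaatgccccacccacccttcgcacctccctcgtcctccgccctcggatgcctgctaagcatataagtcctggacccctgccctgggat
Fcgbp: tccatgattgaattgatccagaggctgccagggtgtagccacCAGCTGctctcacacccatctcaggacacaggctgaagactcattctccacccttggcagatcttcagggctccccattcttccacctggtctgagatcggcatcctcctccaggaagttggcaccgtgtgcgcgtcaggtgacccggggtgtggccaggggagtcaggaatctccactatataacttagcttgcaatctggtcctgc
Muc3: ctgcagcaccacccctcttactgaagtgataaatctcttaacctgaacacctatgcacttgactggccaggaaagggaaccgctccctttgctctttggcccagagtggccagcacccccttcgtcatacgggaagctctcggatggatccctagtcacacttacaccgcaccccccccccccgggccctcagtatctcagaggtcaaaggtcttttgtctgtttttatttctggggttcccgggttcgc
The TATA box was searched as TATAAA, which 12.4% of 32851 promoter windows of the same length held. Muc2 had these letters 174 bases before the start, which does not make them its working TATA box. Similar letters closer to the start, TATAAG in Muc2 and TATAAC in Fcgbp, were not part of the search and are not marked. The forkhead site, bound by the Foxa factors of the gut epithelium, was searched as TGTTTAC and was held by 3.17% of the windows and by none of these 4. The E-box, the kind of site that the secretory-lineage factor Atoh1 binds, was searched as CAGCTG and was held by 13.0% of all windows. Muc2 had it 112 bases and Fcgbp 208 bases before the start. The GATA site was searched as AGATAA, held by 9.99% of all windows. Muc2 had it 169 and 159 bases before the start, and the upstream one shares a base with the TATAAA match. The site of the caudal homeobox factors was searched as TTTATTG, held by 4.20% of all windows and by none of these 4. Neither the Muc3 nor the Agr2 window held any of the 5 motifs. The RefSeq start of Muc3 lies upstream of the gene as GENCODE vM21 draws it. These matches describe letters only.

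The gel-forming mucin itself, Muc2 (chr7:141690340-141754693, plus strand), was measured in goblet-gated cells at 22333 CPM in PFF 1, against 19802 CPM in saline 2, 15522 CPM in shared well 1 and 18154 CPM in shared well 2. PFF 1 was the highest of these 4 wells, which are those with 10 or more goblet-gated cells. Zg16 (chr7:127050156-127087328, minus strand), a lectin that binds the cell wall of Gram-positive bacteria, was the most abundant of the 8, at 172693 CPM in PFF 1, against 225256 CPM in saline 2, 144371 CPM in shared well 1 and 207554 CPM in shared well 2. PFF 1 lay within the range of the saline wells. Across all 121 cells Zg16 made up 51.1% of the UMIs of the 8 genes.

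Tff3 (chr17:31125306-31129646, minus strand), a trefoil peptide that helps the epithelium to heal, had 71878 CPM in PFF 1, against 74775 CPM in saline 2, 73803 CPM in shared well 1 and 78512 CPM in shared well 2. These were the closest levels of the 8 genes. Fcgbp (chr7:28071236-28120862, plus strand), a large protein of the mucus gel, had 67795 CPM in PFF 1, against 58695 CPM in saline 2, 51937 CPM in shared well 1 and 51663 CPM in shared well 2. PFF 1 was the highest of the 4 wells. Clca1 (chr3:145003817-145032776, minus strand), a metalloprotease of the mucus, had 19136 CPM in PFF 1, against 21471 CPM in saline 2, 21209 CPM in shared well 1 and 18076 CPM in shared well 2.

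Spink4 (chr4:40920052-40931395, plus strand), a small secreted protein of the Kazal-type inhibitor family, had 7393 CPM in PFF 1, against 7878 CPM in saline 2, 8086 CPM in shared well 1 and 4596 CPM in shared well 2. Agr2 (chr12:35992907-36004087, plus strand), the disulfide isomerase of mucin folding, had 3797 CPM in PFF 1, against 5003 CPM in saline 2, 4372 CPM in shared well 1 and 3386 CPM in shared well 2. For both genes PFF 1 lay within the range of the saline wells. Taken as a whole, the 8 genes were 36.5% of all UMIs of the goblet-gated cells in PFF 1, against 41.3% in saline 2, 31.9% in shared well 1 and 38.2% in shared well 2. The single goblet-gated cells of saline 1 and shared well 3 had all 8 genes too, with Muc2 at 37512 CPM in saline 1 and 22372 CPM in shared well 3, and 1 UMI of Muc3 each. No exon of the 8 genes overlaps an exon of another gene in the annotation (GENCODE vM21).

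**Figure D1:**
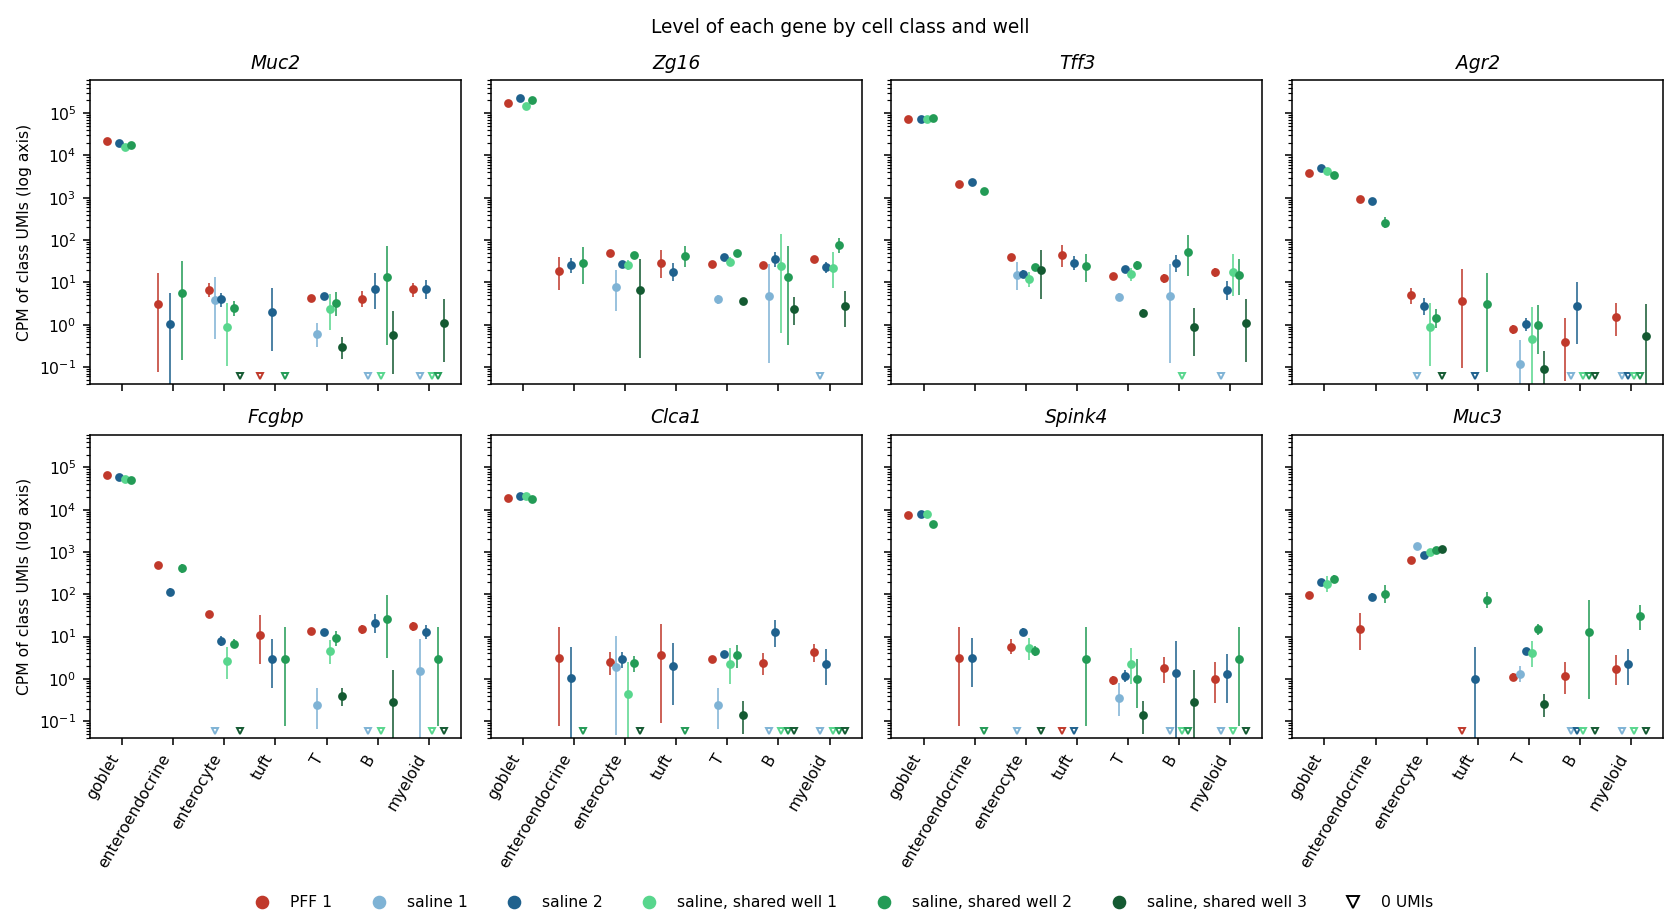
Level of each of the 8 genes in CPM of the summed UMIs of a class (log axis), by cell class and well; points are wells with at least 7 cells of the class, bars are exact 95% Poisson intervals that cover counting error only, and open triangles are classes with 0 UMIs. The 7 secretory genes stand at 3386 CPM or more in goblet-gated cells. In enteroendocrine cells Tff3 is at most at 2336 CPM, Agr2 at 958 CPM and Fcgbp at 483 CPM, and Muc3 is highest in enterocytes.

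Cell by cell, 116 of the 121 goblet-gated cells held at least 1 UMI of all 7 secretory genes. The 8 genes took from 0.541% to 69.3% of the UMIs of a cell, with a median of 38.4%, and 7 cells were under 10%. Tff3 and Fcgbp varied least, with quartiles of 579 and 942 UMIs per 10000 for Tff3 and 508 and 757 for Fcgbp. Spink4 and Agr2 varied most of the secretory genes. The quartiles of Spink4 were 11.5 and 72.6 UMIs per 10000, with 0 UMIs in 4 cells and 299 per 10000 in the highest cell, and in 19 cells Spink4 exceeded Muc2. The quartiles of Agr2 were 11.5 and 50.3 UMIs per 10000.

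**Figure D2:**
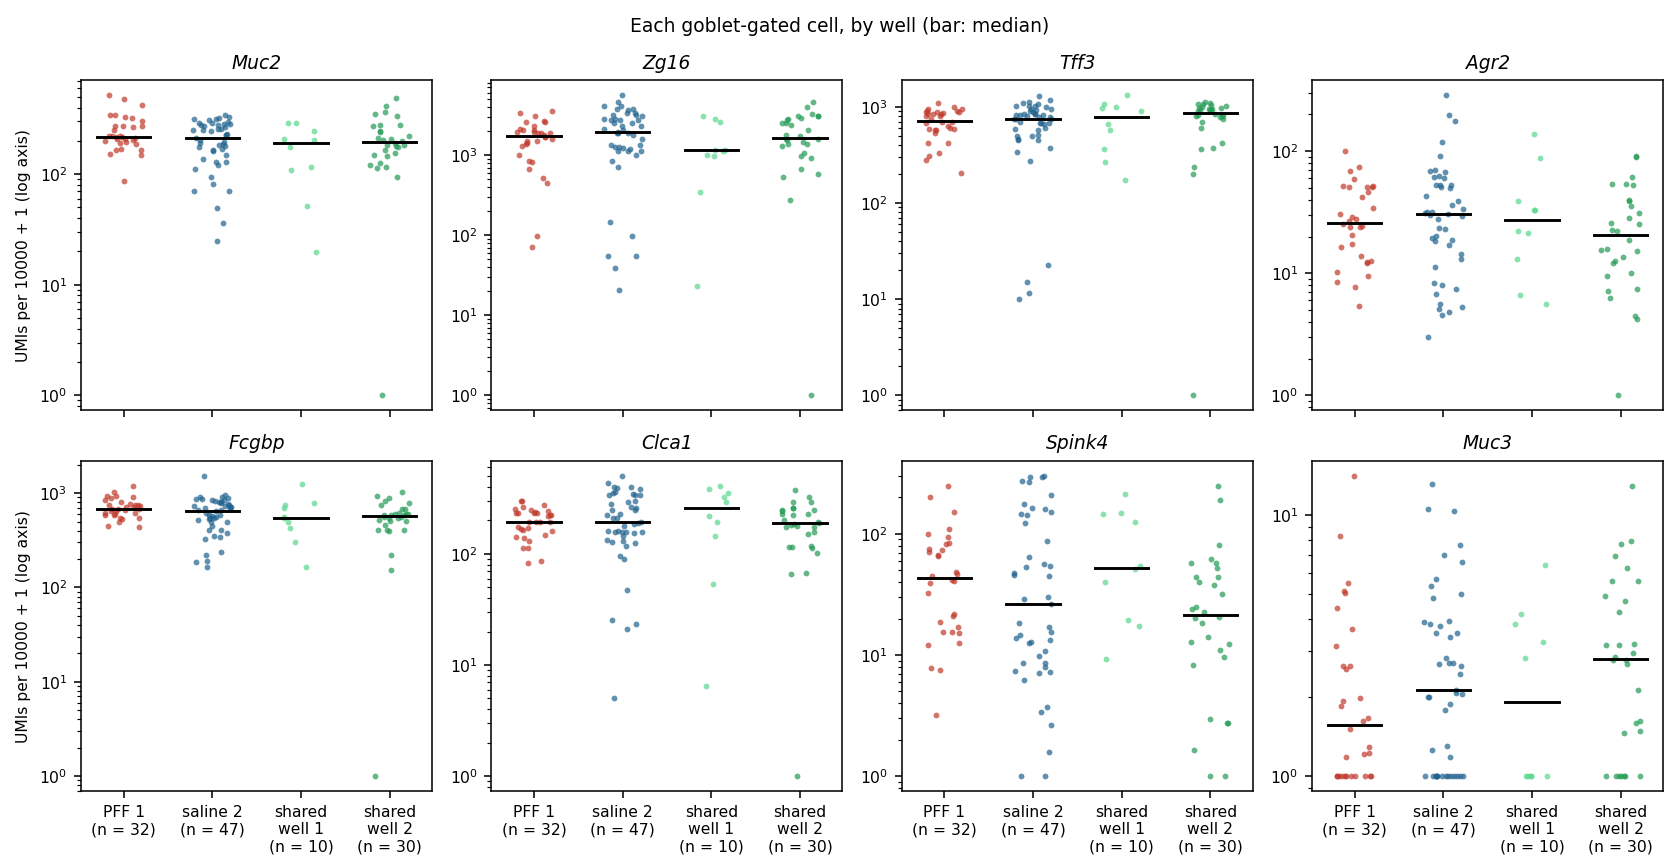
UMIs per 10000 plus 1 (log axis) of each gene in each goblet-gated cell, by well, with the median as a bar; wells are PFF 1 (32 cells), saline 2 (47), shared well 1 (10) and shared well 2 (30). For most genes the PFF 1 cells lie among those of the saline wells, and the pair of PFF 1 cells lowest for Zg16, at 97.6 and 70.7, are the pair richest in Paneth markers.

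Within a well, Zg16 and Tff3 went together most closely from cell to cell, with a Spearman's rho of 0.889 over the 32 cells of PFF 1, against 0.893 over 47 cells of saline 2 and 0.884 over 30 cells of shared well 2. Clca1 went with Zg16, at 0.732 in PFF 1, against 0.652 in saline 2 and 0.745 in shared well 2. It also went with Fcgbp, at 0.703 in PFF 1, against 0.693 in saline 2 and 0.679 in shared well 2. Muc2 went with Fcgbp, at 0.624 in PFF 1, against 0.771 in saline 2 and 0.541 in shared well 2. Agr2 went with Spink4, at 0.427 in PFF 1, against 0.727 in saline 2 and 0.538 in shared well 2. Muc3 ran opposite to Spink4, at -0.667 in PFF 1, against -0.385 in saline 2 and -0.320 in shared well 2. The Muc2 and Spink4 pair kept no sign, at -0.460 in PFF 1, against 0.123 in saline 2 and -0.207 in shared well 2. These values are descriptions: the genes were scaled per UMI of the genes other than these 8, and the cells of a well share their library. Agr2 also went with the total UMIs of a cell, at 0.484 in PFF 1, against 0.389 in saline 2 and 0.754 in shared well 2. Spink4 did so at 0.507 in PFF 1, against 0.181 in saline 2 and 0.436 in shared well 2. Muc2 ran opposite to the total, at -0.412 in PFF 1, against -0.098 in saline 2 and -0.239 in shared well 2. For Muc3 it was -0.342 in PFF 1, against -0.002 in saline 2 and -0.045 in shared well 2. Muc3 also had a median of 2 UMIs a cell and 0 UMIs in 37 of the 121 cells. The part of depth in these pairs was not tested.

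**Figure D3:**
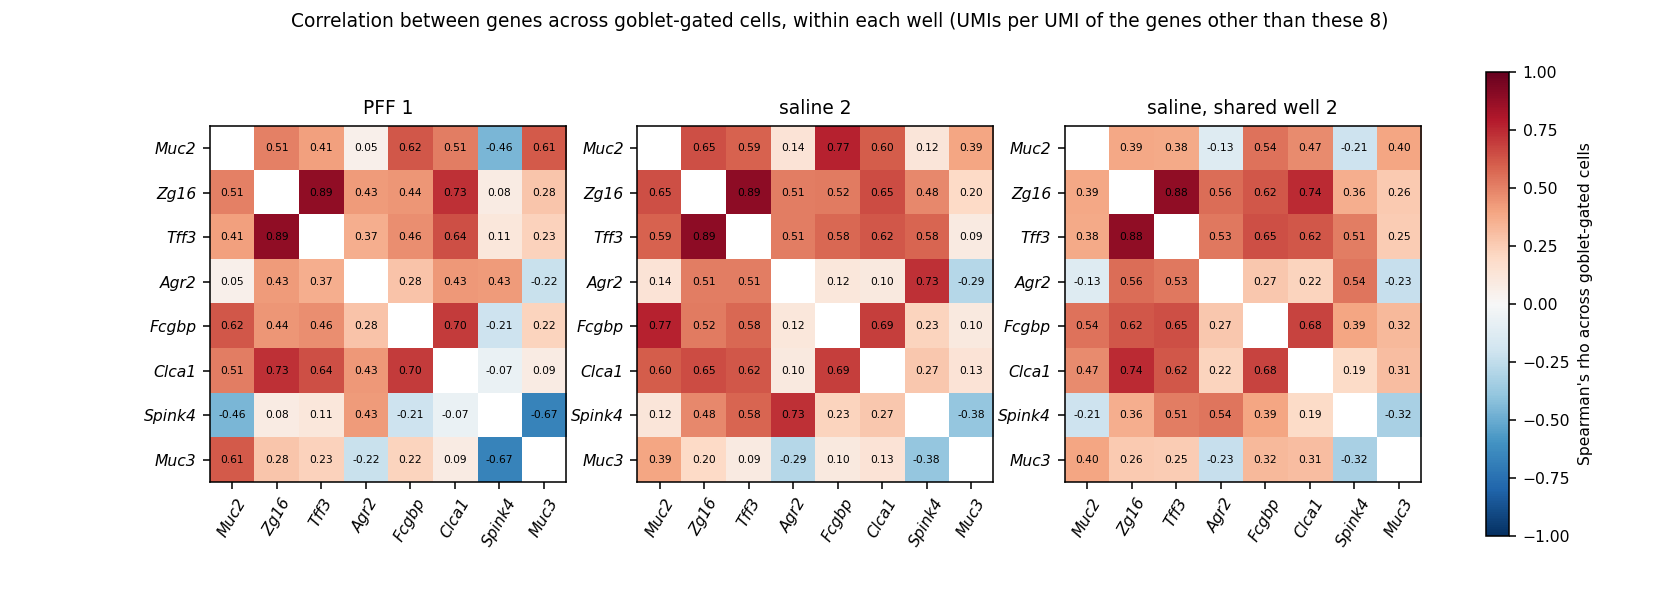
Spearman's rho between each pair of the 8 genes across goblet-gated cells, each gene per UMI of the genes other than these 8, for PFF 1 (32 cells), saline 2 (47 cells) and shared well 2 (30 cells). Zg16 and Tff3 are the closest pair in all 3 wells, and Spink4 with Muc3 is negative in all 3.

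Some goblet-gated cells carried markers of another cell type. Of 8 Paneth cell markers, the antimicrobial granule genes of the crypt base such as Lyz1 and Defa24, 26730 UMIs were found in the goblet-gated cells of PFF 1, and 4 of its 32 cells held 26548 of them. In a pair of these cells Paneth markers were 26.3% and 20.7% of the UMIs. Zg16 had 97.6 and 70.7 UMIs per 10000 in that pair, against a median of 1781 over all 121 cells, while Muc2 had 165 and 151, against a median of 209. The rest of the 4 cells had 1375 and 1915 UMIs of Zg16 per 10000. In saline 2 there was 1 cell with 1% or more Paneth UMIs, with 1139 UMIs of Zg16 per 10000, and in shared wells 1 and 2 there were 0. The saline 2 cell lowest for Zg16 had 19.9 per 10000 and was not that cell. Another cell, in shared well 2, held 327 UMIs of the Brunner gland marker Tff2, with the other one, Muc6, at 0, and 90 of Agr2 and 3 of Spink4, with 0 UMIs of the other 6 genes. All 10 enterocyte markers were found in 0 goblet-gated cells of PFF 1, against 2 of saline 2 and 1 each of shared wells 1 and 2.

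The first comparison set goblet-gated cells against the other epithelium of the same wells, that is enterocytes (1467 cells over all wells), enteroendocrine cells (40), tuft cells (62) and 23 others. UMIs were summed per class and well in the 4 wells with 10 or more goblet-gated cells and tested with edgeR's quasi-likelihood test with the well as a block and Benjamini-Hochberg adjustment over 10658 genes. All 7 secretory genes were higher in goblet-gated cells and Muc3 was lower. Of all genes tested, 42.3% were called, 16.6% as higher and 25.7% as lower. The log2 fold change was 13.69 ± 0.60 (SE) for Clca1, 13.02 ± 0.56 for Muc2, 12.79 ± 0.75 for Zg16 and 12.23 ± 0.77 for Fcgbp. It was 10.52 ± 0.46 for Spink4, 10.37 ± 0.81 for Tff3 and 8.17 ± 0.82 for Agr2, and the highest adjusted p of the 7 by edgeR was 5.67e-06, for Agr2. Against enterocytes alone Agr2 was at 11.04 ± 0.47 and Tff3 at 12.08 ± 0.54.

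**Figure D4:**
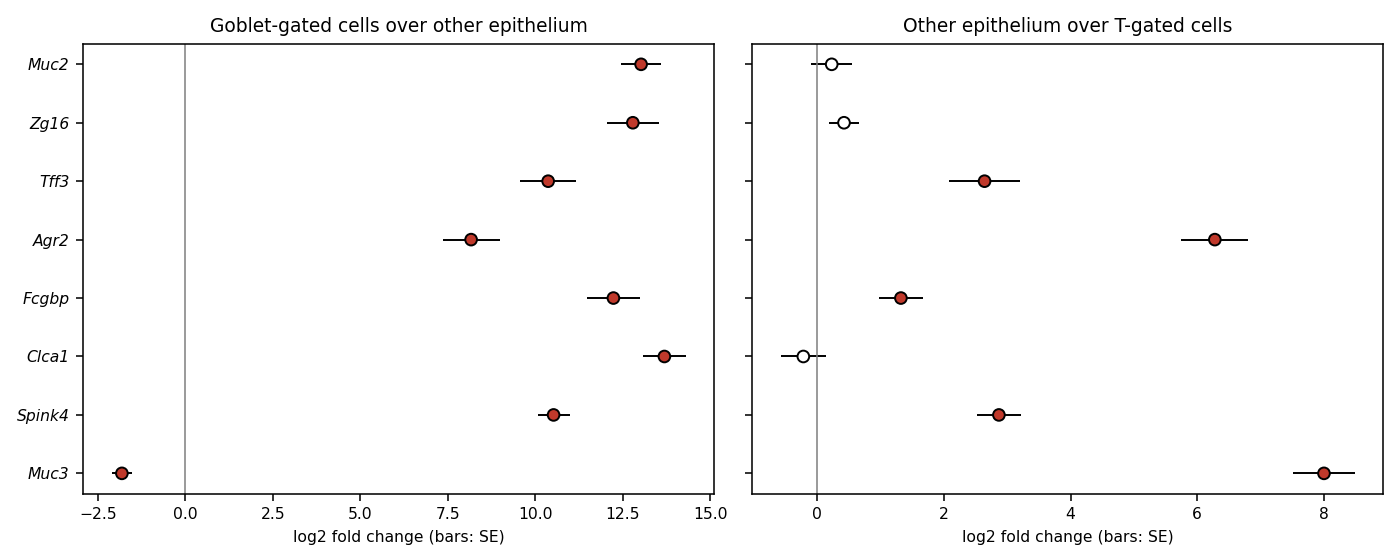
Log2 fold changes (SE as bars) from edgeR for goblet-gated cells over other epithelium, left, and for other epithelium over T-gated cells, right, in the 4 wells with 10 or more goblet-gated cells; filled points passed an adjusted p of 0.05. Muc3 is the only one of the 8 below 0 at left, at -1.81, and the highest at right, at 8.0.

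Genes of mucus assembly around the members were followed in lists chosen with earlier results of these data known, beside a median log2 fold change of -0.13 over all 10658 genes. Of 29 tested genes of mucin O-glycosylation and sugar supply, 21 were higher in goblet-gated cells and 5 lower, with a median of 1.42. The most abundant of those higher were Gmds, an enzyme of GDP-fucose synthesis (log2 1.72 ± 0.34), Galnt7, which adds GalNAc to mucin chains (2.79 ± 0.26), and Gcnt3, which branches them (6.76 ± 0.34), and among those lower were the sialyltransferase St3gal4 (-1.79 ± 0.28) and its relative St3gal1 (-3.59 ± 0.60). Of 23 genes of protein folding in the endoplasmic reticulum 15 were higher and 0 lower, with a median of 1.00, among them the disulfide isomerase Txndc5 (6.27 ± 0.32), the chaperone Hspa5 (1.09 ± 0.24) and the lectin chaperone Calr (0.77 ± 0.24). Of 12 genes of granule transport and exocytosis 10 were higher and 0 lower, with a median of 4.13, among them Sytl2 (10.91 ± 0.46), Rab27b (4.81 ± 0.30) and Rab27a (5.59 ± 0.31), which tether secretory granules at the membrane.

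Of 12 tested other secreted proteins of goblet cells and mucus, 5 of which are among the 8 genes, 9 were higher and 1 lower, with a median of 6.55. Besides those 5 they were Lypd8 (2.16 ± 0.33), Guca2a (4.92 ± 0.40), Itln1 (4.55 ± 0.81) and Ang4 (8.95 ± 0.72), of which Ang4 is also a Paneth marker. The one that was lower was Guca2b (-3.01 ± 0.38), the uroguanylin gene. Of the transmembrane mucins tested beside Muc3, Muc13 was higher (1.23 ± 0.32) and Muc4 was at -0.88 with an adjusted p of 0.217 (edgeR).

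The genes whose level over classes and wells was most like that of Muc2 were searched among 2422 genes of 50 CPM or more in goblet-gated cells, over 34 groups of 10 or more cells in 9 classes, with Pearson's r of log2(CPM + 1). Outside the 8 genes and the gating markers they were Fer1l6 (0.967), Capn8 (0.959), Hs3st5 (0.941), Galnt5 (0.940) and Defa24 (0.939). Among the 8, Clca1 had 0.979, Zg16 0.950, Spink4 0.949, Fcgbp 0.948, Tff3 0.895, Agr2 0.858 and Muc3 0.428. Defa24 is a Paneth marker, and it was found in goblet-gated cells of saline 2 and shared wells 1 and 2 as well as PFF 1. The UMIs of the 8 Paneth markers together were uneven over these cells. In PFF 1, 4 cells held 99.3% of them. The top cell held 98.7% in shared well 1, 27.5% in saline 2 and 37.9% in shared well 2. The r of Defa24 may thus rest on few cells. The groups share wells and free RNA, so these values are descriptions with no test.

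Muc3 (chr5:137134922-137149322, minus strand) was highest in enterocytes, the absorptive cells whose surface the membrane-bound mucins coat. Goblet-gated cells held 94.3 CPM of Muc3 in PFF 1, against 199 CPM in saline 2, 179 CPM in shared well 1 and 228 CPM in shared well 2. Enterocytes held 641 CPM in PFF 1, against 1378 CPM in saline 1, 860 CPM in saline 2 and 1012, 1093 and 1191 CPM in shared wells 1, 2 and 3. Goblet-gated cells were below enterocytes in all 4 wells. Muc3 was lower in goblet-gated cells by a log2 fold change of -1.81 ± 0.29 (edgeR, adjusted p = 0.000247). By these sums over cells, PFF 1 was the lowest well in enterocytes. The median share of an enterocyte's UMIs, taken for Muc3 and the secretory genes together, was instead highest in PFF 1, at 0.243%. It was 0.152% in saline 1, 0.125% in saline 2 and 0.104, 0.111 and 0.153% in shared wells 1, 2 and 3. In PFF 1 enterocytes Muc3 made up 2851 of these 3494 UMIs. The median share of Muc3 alone was not tested. A UMI of Muc3 was found in 84 of 121 goblet-gated cells and in 1407 of 1467 enterocytes, while in PFF 1 goblet-gated cells had a median of 51402 UMIs, against 3384 in enterocytes. T-gated cells, which should lack the gene, had a UMI of it in 1.01% of cells in PFF 1, against 4.18% in saline 2 and 6.01% in shared well 2.

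With every cell thinned to 2000 UMIs, Muc3 was found in 15.6% of goblet-gated cells of PFF 1, against 66.3% of its enterocytes, with 76 of 245 enterocytes too shallow and left out. Before thinning these were 65.6% of goblet-gated cells, against 94.7% of enterocytes. In saline 2 the thinned shares were 36.2% of goblet-gated cells, against 67.8% of enterocytes (92 of 337 left out), and before thinning 70.2%, against 92.0%. In shared well 1 they were 30.0% of goblet-gated cells, against 80.2% of enterocytes, and in shared well 2 33.3% of goblet-gated cells, against 81.6% of enterocytes. Goblet-gated cells kept 14.7% of the enterocyte level of Muc3 in PFF 1, against 23.1% in saline 2, 17.7% in shared well 1 and 20.9% in shared well 2. The median of the same ratio over 10 enterocyte markers was 1.81% in PFF 1, against 3.58% in saline 2, 8.75% in shared well 1 and 13.9% in shared well 2. Muc3 was above this median in all 4 wells, but single markers were above Muc3 in 3 of them. These were Fabp2 in PFF 1 (22.4%), Anpep in shared well 1 (18.9%), and Fabp2 (29.2%) and Sis (26.9%) in shared well 2, and in saline 2 Fabp2 was close to Muc3, at 22.8%. A neighbouring gene on the same strand, Muc3a, went the other way, with 282 CPM over all goblet-gated cells and 4.71 CPM over all enterocytes, and a log2 fold change of 5.57 ± 0.28 in goblet-gated cells over other epithelium. It is named here after its values were seen. Their transcripts share 0 words of 25 bases, and 59.49 kb lie between them.

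Enteroendocrine cells, the hormone-secreting cells of the epithelium, held Tff3, Agr2 and Fcgbp at levels between those of goblet cells and enterocytes in the 3 wells with 7 or more such cells. Tff3 was at 2108 CPM in the 7 enteroendocrine cells of PFF 1, against 2336 CPM in 19 cells of saline 2 and 1469 CPM in 10 cells of shared well 2. Agr2 was at 958 CPM in PFF 1, against 829 CPM in saline 2 and 258 CPM in shared well 2. Fcgbp was at 483 CPM in PFF 1, against 115 CPM in saline 2 and 419 CPM in shared well 2. At least 10 UMIs of Tff3 were found in 26 of 40 cells and of Agr2 in 12, while Muc2 had 3 UMIs in all 40 cells together. These 40 cells held 84.0% of the Tff3, 95.2% of the Agr2 and 53.9% of the Fcgbp UMIs of the 1592 other epithelial cells. Of the UMIs of the 7 secretory genes in them, 67.1% were Tff3 and 0.737% Zg16, against 23.8% Tff3 and 45.0% Zg16 in T-gated cells, which hold free RNA. Few cells carried much of it: the top 2 of 40 cells held 24.9% of the Tff3, 36.6% of the Agr2 and 59.1% of the Fcgbp UMIs, and within PFF 1 the top 2 of 7 cells held 80.6%, 99.7% and 98.7% of the UMIs of Tff3, Agr2 and Fcgbp. The enteroendocrine cells of shared well 1, of which there were 2, had 2 UMIs of Tff3 and 0 of Agr2 and Fcgbp.

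Free RNA from broken cells enters every droplet, and T cells, which are not known to make the 7 secretory genes, show its level. The 7 genes together had 64.6 CPM in T-gated cells of PFF 1, against 10.2 CPM in saline 1, 85.4 CPM in saline 2 and 58.7, 92.6 and 6.57 CPM in shared wells 1, 2 and 3. The lowest values were in saline 1 and shared well 3, the wells with 1 goblet-gated cell each. At least 1 UMI of the 7 was found in 19.9% of T-gated cells of PFF 1 (median 9115 UMIs), against 2.42% in saline 1 (3222 UMIs) and 49.1% in saline 2 (10214 UMIs). In the 4 wells with 10 or more goblet-gated cells, each of the 7 was in T-gated cells at 0.890 to 3.23 per 10000 of its level in goblet-gated cells of the same well. B, plasma, myeloid and mast cells had each of the 7 at 76.0 CPM or less in wells with 10 or more cells of the class, the highest being Zg16 in myeloid cells of shared well 2.

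The second comparison set the other epithelium against T-gated cells of the same 4 wells, with 73.7% of 14547 genes called, 36.7% as higher and 37% as lower. Muc2, Zg16 and Clca1 did not pass the test, at log2 fold changes of 0.23 ± 0.32, 0.42 ± 0.24 and -0.22 ± 0.36 (edgeR, adjusted p = 0.539, 0.144 and 0.591). Muc3 was higher, at 8.0 ± 0.48, and so were Agr2 at 6.28 ± 0.53, Spink4 at 2.87 ± 0.35, Tff3 at 2.64 ± 0.56 and Fcgbp at 1.32 ± 0.35. In enterocytes alone, without the enteroendocrine cells, Agr2 was at 2.24 ± 0.43, Tff3 at 0.79 ± 0.29 and Fcgbp at 0.58 ± 0.36, the last with an adjusted p of 0.182 by edgeR. Zg16 was then at 0.60 ± 0.23 with an adjusted p of 0.0437 by edgeR.

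In enterocytes Spink4 stood above its level in T-gated cells. It had 5.84 CPM in enterocytes of PFF 1, against 0.924 CPM in its T-gated cells. In saline 2 it had 12.9 CPM in enterocytes, against 1.19 CPM in T-gated cells. In shared well 1 it had 5.32 CPM in enterocytes, against 2.31 CPM in T-gated cells, and in shared well 2 it had 4.66 CPM in enterocytes, against 0.989 CPM in T-gated cells. It had 0 UMIs in the 30 enterocytes of saline 1. The log2 fold change of enterocytes over T-gated cells was 3.18 ± 0.37 (edgeR, adjusted p = 0.000106). Of the UMIs of the 7 secretory genes, Spink4 was 8.26% in enterocytes, 1.5% in T-gated cells and 1.89% in goblet-gated cells. The UMIs were spread over 113 of 1467 enterocytes with at most 7 in a cell. In PFF 1, 6.94% of enterocytes had a UMI, against 0.876% of T-gated cells, and in saline 2 14.8% of enterocytes, against 1.15% of T-gated cells. In shared well 1 it was 5.23% of enterocytes, against 0.639% of T-gated cells, and in shared well 2 5.49% of enterocytes, against 0.401% of T-gated cells. By median depth enterocytes were deeper than T-gated cells in both shared wells and shallower in PFF 1 and saline 2. The deepest enterocyte of PFF 1 had 134206 UMIs, against 56282 in its deepest T-gated cell. In saline 2 these were 155325 UMIs, against 45540, so depth could raise the unthinned enterocyte shares in these wells too. With cells thinned to 2000 UMIs the shares were 1.18% of enterocytes, against 0.181% of T-gated cells, in PFF 1, and 1.63% of enterocytes, against 0.139% of T-gated cells, in saline 2. In shared well 1 the thinned shares were 0.617% of enterocytes, against 0.178% of T-gated cells, and in shared well 2 0.619% of enterocytes, against 0.413% of T-gated cells. These thinned shares rest on 1 to 4 enterocytes a well, too few to show a difference in the shared wells.

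The last comparison asked whether the genes differed between PFF and saline mice. In goblet-gated cells the planned test of PFF 1 against saline 1 and saline 2 was not run, because saline 1 had 1 such cell, and PFF 1 was tested against saline 2 and shared wells 1 and 2 instead, a design chosen after the cells were counted. The shared wells belong to both saline files, which are of batches 1 and 2, so the batch of these wells is not known. Saline 2 is of batch 2 and PFF 1 of batch 1. No saline well in this test is known to be of batch 1, so batch and treatment cannot be told apart in it. The p-values measure the spread between the saline wells. None of the 8 genes passed, where 29 of 7649 genes or 0.379% were called (edgeR), 0.17% as higher and 0.209% as lower. Of the 7649, 386 had an unadjusted p under 0.05 and DESeq2 called 28. Muc3 was furthest from 0, at a log2 fold change of -1.12 ± 0.39 (adjusted p = 0.584 by edgeR), and the other 7 lay between -0.16 and 0.34 with SEs of 0.42 to 0.49. PFF 1 was below these 3 saline wells in Muc3, and above the single cell of saline 1, whose 1 UMI makes 65.8 CPM.

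Enterocyte markers were also lower in these cells of PFF 1, at 1509 CPM in sum. The sums were 2804 CPM in saline 2, 4354 CPM in shared well 1 and 9213 CPM in shared well 2. Fabp1, Sis, Alpi and Anpep were among those lower in PFF 1, the last at 0 UMIs there. Few cells carried much of the saline sums. Cells with all 10 markers held 34.8% of these UMIs in saline 2, 61.2% in shared well 1 and 67.7% in shared well 2. These were 2 cells of saline 2 and 1 each of shared wells 1 and 2. Shared well 1 was above saline 2 in these markers and below it in Muc3. Without the 4 cells with all 10 enterocyte markers Muc3 was at 94.3 CPM in PFF 1, against 175 CPM in saline 2, 157 CPM in shared well 1 and 214 CPM in shared well 2. The fit was then at -1.03 ± 0.36 (adjusted p = 0.919 by edgeR). The part of the enterocyte markers in the difference was not tested further. Of the 8 Paneth markers, 6 could be tested and all 6 were higher in PFF 1, at 16478 CPM in sum, against 735 CPM in saline 2, 640 CPM in shared well 1 and 355 CPM in shared well 2. Itln1, a lectin of the list of secreted proteins, and Ang4, in that list and a Paneth marker, were also called higher, and no other gene of the mucus lists was called. The 4 cells described above held 99.3% of the Paneth marker UMIs of PFF 1. When goblet-gated cells of 1% or more Paneth UMIs were left out, edgeR called 0 of 7531 genes. At an unadjusted p under 0.05 there were 357, and Muc3 was at -0.92 ± 0.38 (adjusted p = 0.933).

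**Figure D5:**
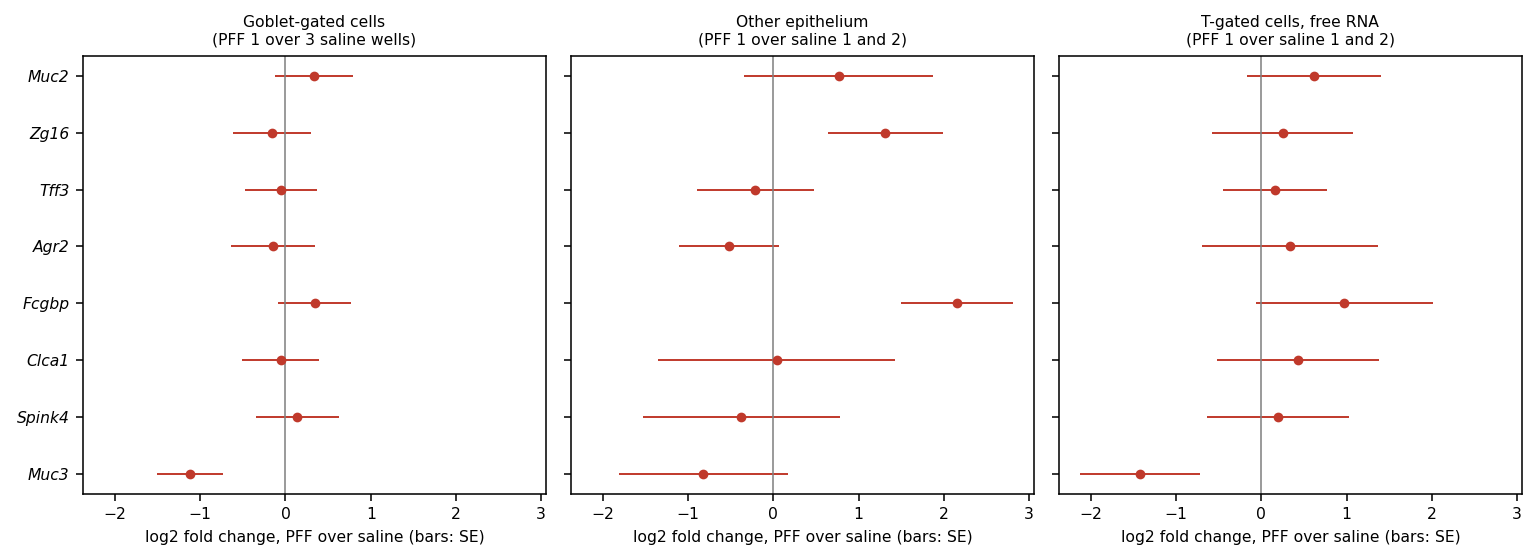
Log2 fold changes of PFF 1 over saline (SE as bars) from edgeR for the 8 genes in goblet-gated cells against 3 saline wells, in other epithelium and in T-gated cells against saline 1 and saline 2. No point passed the adjusted threshold, and Muc3 is below 0 in all 3 panels.

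In the other epithelium, PFF 1 was tested against saline 1 and saline 2, with 1 of 12796 genes called (0.00781%), the hormone gene Sst, and none of the 8. Without adjustment 220 genes had a p under 0.05, and DESeq2 called 3. Fcgbp came closest, at a log2 fold change of 2.15 ± 0.66 (adjusted p = 1.00 by edgeR). Enterocytes had 34.4 CPM of Fcgbp in PFF 1, against 0 UMIs in saline 1, 7.82 CPM in saline 2, 2.66 CPM in shared well 1, 6.79 CPM in shared well 2 and 0 UMIs in shared well 3. PFF 1 was the highest well. In enterocytes it was also the highest well for Muc2, Zg16, Tff3 and Agr2, and not for Clca1 and Spink4. T-gated cells had 13.6 CPM of Fcgbp in PFF 1, against 0.242 CPM in saline 1 and 12.9 CPM in saline 2. In enterocytes alone Fcgbp was at 2.54 ± 0.82 (adjusted p = 0.484 by edgeR). Muc3 in the other epithelium was at -0.82 ± 0.99 (edgeR, adjusted p = 1.00), and the enterocytes of PFF 1 were shallower, with a median of 3384 UMIs, against 16651 in saline 1 and 6101 in saline 2.

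In T-gated cells none of the 8 genes passed, where edgeR called 0 of 15580 genes (0%). There were 501 genes at an unadjusted p under 0.05, and DESeq2 called 2. Against saline 1, of the same batch, the 7 secretory genes were higher in T-gated cells of PFF 1 by log2 values of 1.31 (Spink4) to 5.64 (Fcgbp). Against saline 2 the 7 values lay between -0.59 and 0.05. The direction therefore depended on the saline library for all of the 7 but Fcgbp, which was near 0 against saline 2, at 0.05. The number of goblet-gated cells also differed between the libraries, at 32 in PFF 1, against 1 in saline 1 and 47 in saline 2. Batch 2 holds saline alone, so batch and treatment cannot be told apart in saline 2. In sums over cells of a class, fewer cells of a kind and less RNA per cell cannot be told apart.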

How the data were processed

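Single cells of the duodenum were measured in 1 PFF and 2 saline libraries with 10x 3' chemistry. The authors deposited raw UMI counts for each gene in each barcode, made with Cell Ranger 7.0.0 per the file headers and the mm10 build per the submitters' processing notes. No source used here names the annotation release or how wells were joined. The members and lists were chosen with earlier results of these data known.

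Wells held by both saline files were counted once. Cells with at least 500 UMIs, 200 genes and no more than 15% of UMIs from mitochondrial genes passed, and barcode copies with under 5% of the UMIs of a deeper copy in another well were left out. Scrublet's automatic threshold marked under 1% of the cells of every well, so the highest scores were removed at 0.8% per 1000 cells (scanpy 1.11.5, Python 3.11.15). Classes came from numbers of distinct markers: epithelium from at least 6 of 12 and at most 4 of 13 immune markers, enterocytes at least 6 of 10, enteroendocrine cells 4 of 8, tuft cells 3 of 6, T cells 4 of 8, with at most 3 epithelial markers for immune classes. Crypt and remaining epithelial cells were part of the other epithelium.

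UMIs were summed per class and well and compared by edgeR 4.0.16 under R 4.3.3 (TMM scaling, filterByExpr, quasi-likelihood F test, 2-sided, Benjamini-Hochberg over all genes tested, threshold 0.05); DESeq2 1.42.0 was an alternative. The SE given beside an edgeR value was derived, as the absolute log2 fold change divided by the square root of the F statistic. As PFF has 1 library, the error in PFF over saline reflects saline samples alone, which may be technical repeats. Values against 1 saline library each took a prior count of 2. The test scripts were checked on simulated data. Named genes were the 8 members, the called list genes of highest goblet level, with genes lower in a list, Sst and marker genes added after their values were seen, and the 5 genes most like Muc2. Intervals are exact at 95% and cover counting error only.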

Additional observations from a re-analysis of the deposited data

How the results depend on the processing

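In goblet-gated cells over other epithelium the 8 genes kept their direction and their call under all 18 alternatives; the count of called genes, 4510, ran from 2863 to 5548 when libraries or wells were left out, and was 2863 without saline 2. The other epithelium over T-gated cells was tried under 14 alternatives, where RLE scaling moved the 8 values by 0.11 to 0.22; Zg16 passed the threshold at 25% mitochondrial UMIs (log2 0.93), without saline 2 (0.73) and in enterocytes alone (0.60), and Fcgbp lost it in enterocytes alone (0.58), for which the cause was not tested. In PFF over saline none of the 8 genes passed in any class under any alternative with a test. In the goblet-gated wells, the count of 29 genes was 113 without a low-count filter, 18 with doublets kept, 15 without cells that held all 10 enterocyte markers, 0 without cells of 1% or more Paneth UMIs, and 30 to 104 with a saline well left out (104 without saline 2, 60 without shared well 2). All alternatives in these wells, those on enterocytes alone and those on shallow barcode copies were chosen after seeing the data. In the other epithelium, the count of 1 gene was 3 with DESeq2, 22 without a low-count filter, 3 at 25% mitochondrial UMIs, 0 with the shared wells as a further library, 0 with the saline files as deposited and 13 in enterocytes alone. In T-gated cells, the count of 0 genes was 2 with DESeq2, 94 without a low-count filter and 1048 with the saline files as deposited, which count the same cells in both saline libraries. The share of the 8 genes in goblet-gated UMIs, as log2 of PFF 1 over saline 2, was -0.18, against -0.38 over the single cell of saline 1. The goblet share of gated epithelium in PFF 1 minus the mean of the saline libraries was 3.77 percentage points, 7.65 without saline 2 and -0.11 without saline 1. No paired analysis was made, because the sample labels name no pairs of PFF and saline samples and PFF has 1 library.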
